A study of Homo sapiens with 6 samples.

Results

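The 10 genes described here encode autophagy cargo receptors (SQSTM1, NBR1, OPTN, TAX1BP1 and CALCOCO2), ATG8 family proteins (MAP1LC3B, GABARAPL1 and GABARAPL2) and conjugation enzymes (ATG7 and ATG5). They were taken by symbol from a table of 13439 genes, and all 10 were found and passed the filter on low values. The libraries were RNA-seq of Saos-2, an established human osteosarcoma cell line, with 3 libraries from cells given 0.20 µM AIL for 24 h and 3 from cells given DMSO, the solvent, for 24 h. AIL is ailanthone, a quassinoid of the tree Ailanthus altissima, and the labels call this dose its IC50. The data cover 1 cell line, 1 dose and 1 time. The labels speak of biological replicates without saying how cultures were separated, so p-values measure the spread between these libraries, which may be technical.

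Selective autophagy delivers marked cargo to the lysosome. Receptors bind ubiquitin on protein aggregates, damaged mitochondria or bacteria, and at the same time bind ATG8 proteins on the growing membrane. ATG8 proteins reach that membrane by a ubiquitin-like reaction, in which ATG7 is the activating enzyme for both ATG8 and ATG12, and the ATG12-ATG5 conjugate joins ATG16L1 to complete the transfer of ATG8 to lipid. SQSTM1 protein (p62) is itself degraded with its cargo and also binds KEAP1, the inhibitor of the transcription factor NRF2. The present data are transcript levels and do not measure autophagic flux.

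Values were taken to be TMM-normalized CPM, read counts scaled by library size. A difference is the mean log2(CPM + 1) of AIL libraries minus that of DMSO libraries, a scale that understates changes of low genes. The 10 genes were chosen by their AIL against DMSO values in these same libraries, so those values are a description without p-values of their own. Their differences and standard errors (SE) come from a limma fit over all 11069 genes averaging 1 CPM or more, in which an adjusted p under 0.05 was a call. In that fit, 6 of the 10 genes were called higher and 1 lower, beside 28.2% of all tested genes called higher and 25.9% called lower. The 3 AIL values lay above the 3 DMSO values for the same 6 genes, as they did for 30.9% of tested genes. They lay below for 1, as for 29.2%. The median difference of the 10 genes was 0.19, against 0.01 over all tested genes. One gene of the 10, SQSTM1, reached a 1.5-fold increase on this scale, as did 1.08% of tested genes.

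Depth, read from the smallest step between values, was 35910000 to 38050000 TMM-scaled reads in AIL libraries and 32550000 to 35830000 in DMSO libraries, so it moved with the treatment. Mitochondrially encoded mRNAs, a sign of RNA quality, summed to 3601 to 3726 CPM in AIL libraries and 4205 to 4374 CPM in DMSO libraries. The part of either in the results below was not tested. Among osteoblast lineage genes looked up, RUNX2 was at 4.72 ± 0.287 CPM in AIL and 4.66 ± 0.295 CPM in DMSO libraries (SD, n = 3 each). BGLAP and SPP1 were under 1 CPM, and ALPL, SP7, IBSP, COL1A1 and COL1A2 had no row among those used here. Of 10 genes of other lineages, CDH5 alone had a row, at 0 to 0.11 CPM in AIL and 0.03 to 0.12 CPM in DMSO libraries. In RNA of whole cultures, more transcript per cell and more cells with the transcript cannot be told apart.

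SQSTM1 stood highest of the 10 by difference. It had 576, 567 and 524 CPM in AIL replicates 1, 2 and 3, against 289.7, 302 and 283 CPM in DMSO replicates 1, 2 and 3. Every AIL library was above every DMSO library, with AIL replicate 3 the lowest of its group. The mean was 555 ± 28.0 CPM under AIL and 292 ± 9.58 CPM under DMSO (SD, n = 3 each), 90.4% higher. The log2 difference was 0.93 (SE 0.0335), with a 95% interval of 0.86 to 1.00. It ranked 15th from the highest among 11069 tested genes. These levels rest on 18799 to 21911 scaled reads per AIL library and 9429 to 10149 per DMSO library, and counting error alone would give a coefficient of variation of 0.700% and 1.01%, against 5.03% and 3.28% observed.

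**Figure D1:**
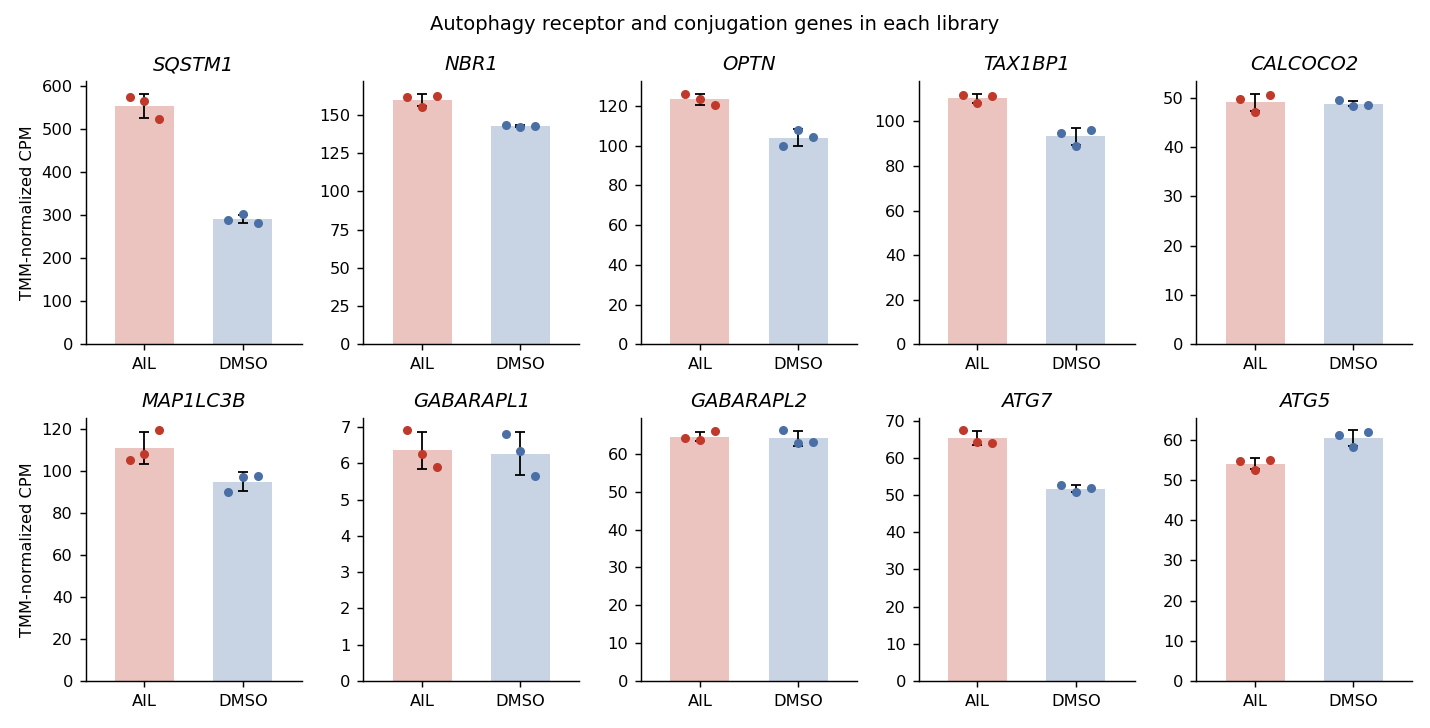
Level of each of the 10 genes in TMM-normalized CPM, with AIL on the left and DMSO on the right of each panel, points for libraries, bars for means and error bars for the SD (n = 3 each). SQSTM1 averages 555 CPM under AIL against 292 CPM under DMSO, while CALCOCO2, GABARAPL1 and GABARAPL2 overlap between the groups.

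NBR1, a receptor built much like SQSTM1 that also binds ubiquitin and ATG8 proteins, had 162, 155 and 163 CPM in the AIL libraries and 143, 142 and 143 CPM in the DMSO libraries. The groups did not overlap, though the difference was small at 0.16 (SE 0.0275). OPTN, optineurin, a receptor in the clearance of mitochondria and bacteria, had 126, 124 and 121 CPM under AIL and 99.8, 108 and 105 CPM under DMSO. Its difference was 0.24 (SE 0.0327). TAX1BP1, a receptor for ubiquitinated aggregates, had 112, 108 and 112 CPM under AIL against 94.7, 89.0 and 96.3 CPM under DMSO, a difference of 0.24 (SE 0.0330). For OPTN and TAX1BP1 as well, each AIL library was above each DMSO library.

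CALCOCO2 (NDP52), a relative of TAX1BP1 that recognises bacteria and damaged mitochondria, did not share this. It had 49.7, 47.1 and 50.4 CPM in AIL libraries and 49.4, 48.4 and 48.5 CPM in DMSO libraries, and the groups overlapped. The difference of 0.01 had a 95% interval of -0.07 to 0.09.

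The share of the receptor reads taken by SQSTM1 was larger under AIL. This share and the ratios below restate the differences given above, for genes chosen by those values, and are not separate results. The 5 receptors summed to 969 to 1025 CPM in AIL libraries and 676 to 689 CPM in DMSO libraries. SQSTM1 took 56.2, 56.6 and 54.0% of that sum in AIL replicates 1, 2 and 3 and 42.8, 43.8 and 41.9% in DMSO replicates 1, 2 and 3. CPM are not divided by transcript length, so this is a share of reads and not of molecules. The 4 receptors without SQSTM1 summed to 443 ± 7.97 CPM under AIL and 389 ± 2.94 CPM under DMSO (SD, n = 3 each). Ratios within a library do not depend on the scaling between libraries. SQSTM1 over NBR1 was 3.48 ± 0.228 under AIL and 2.04 ± 0.0769 under DMSO, and SQSTM1 over MAP1LC3B was 5.03 ± 0.573 and 3.08 ± 0.166.

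**Figure D2:**
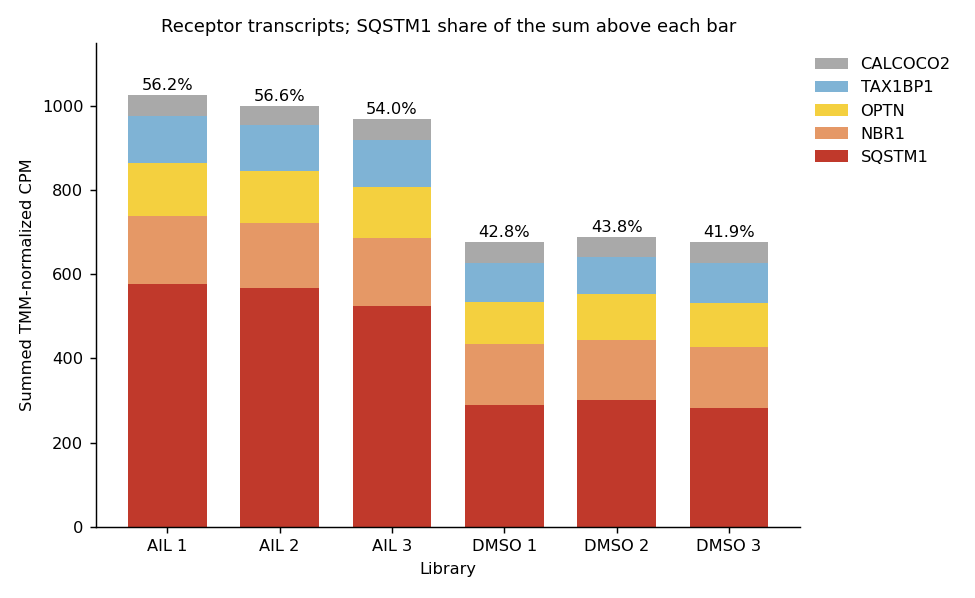
Summed TMM-normalized CPM of the 5 receptor genes in each library, AIL libraries on the left and DMSO libraries on the right, stacked by gene. Numbers above the bars are the share of SQSTM1, which is 54.0 to 56.6% in AIL libraries and 41.9 to 43.8% in DMSO libraries.

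The ATG8 family genes were unlike each other. MAP1LC3B, which encodes LC3B, the ATG8 protein commonly used to mark autophagosomes, had 105, 108 and 119 CPM under AIL and 89.9, 97.1 and 97.7 CPM under DMSO. The groups did not overlap, and AIL replicate 3, lowest in its group for SQSTM1, was the highest for MAP1LC3B. Its difference was 0.22 (SE 0.0425). GABARAPL2 (GATE-16), an ATG8 protein also tied to Golgi transport, had 64.2, 63.5 and 65.9 CPM under AIL and 66.2, 62.9 and 63.1 CPM under DMSO. The groups overlapped and the 95% interval of the difference ran from -0.06 to 0.08. GABARAPL1 was low, at 6.91, 6.25 and 5.90 CPM under AIL and 6.82, 6.33 and 5.64 CPM under DMSO. With 202 to 263 scaled reads per library its interval of -0.15 to 0.19 was the widest of the 10.

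The conjugation enzymes differed in opposite directions. ATG7 had 67.4, 64.4 and 64.0 CPM under AIL and 52.6, 50.7 and 51.9 CPM under DMSO, all AIL libraries being higher. The mean was 65.3 ± 1.88 CPM under AIL and 51.8 ± 0.965 CPM under DMSO (SD, n = 3 each), and the difference of 0.33 (SE 0.0346) was second to that of SQSTM1 among the 10. ATG5 had 54.7, 52.5 and 55.1 CPM under AIL against 61.2, 58.4 and 62.1 CPM under DMSO. It alone of the 10 was called lower, with no overlap and a difference of -0.16 (SE 0.0358). The ratio of ATG7 to ATG5 reads was 1.23, 1.23 and 1.16 in AIL replicates 1, 2 and 3 and 0.861, 0.869 and 0.837 in DMSO replicates 1, 2 and 3.

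**Figure D3:**
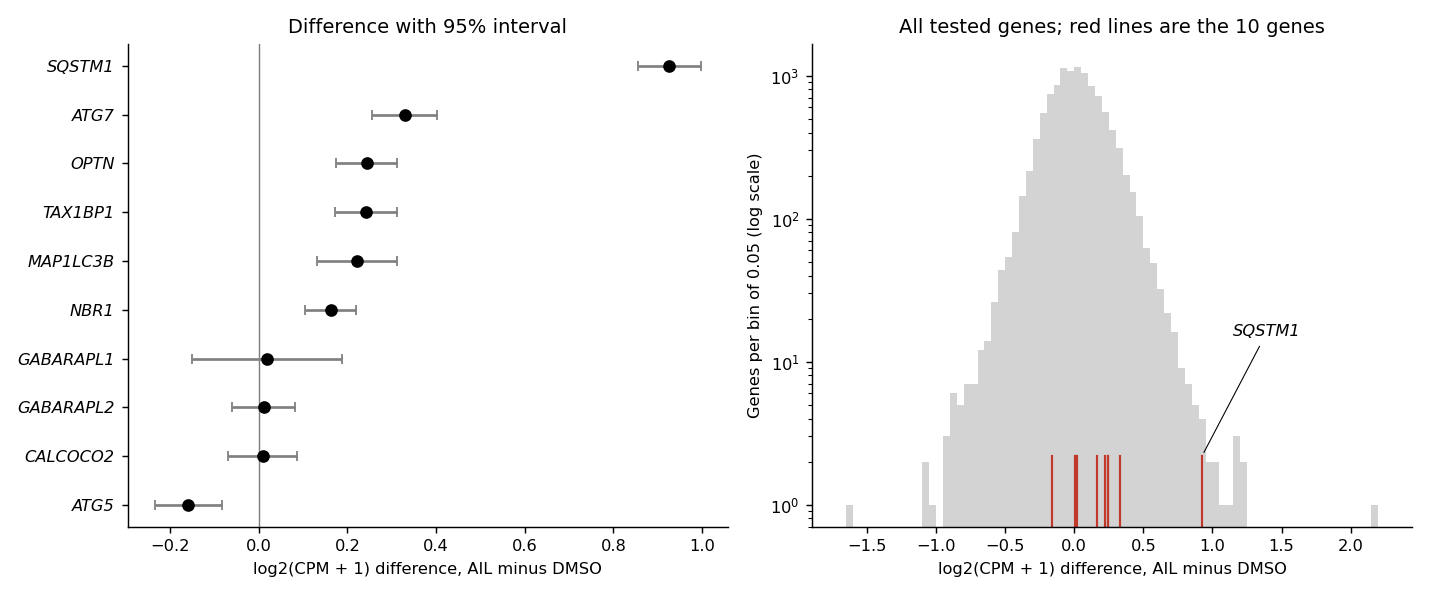
Left, the log2(CPM + 1) difference, AIL minus DMSO, of each of the 10 genes with its 95% interval. Right, a histogram of the differences of all 11069 tested genes on a log count axis, with red lines at the 10 genes; SQSTM1 at 0.93 lies in the upper tail and the other 9 lie between -0.16 and 0.33.

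Reads of these genes could in part belong to neighbours, since no use of strand is stated. In GENCODE v29, exons of MRNIP lie on the opposite strand over 20.7% of the exon bases of SQSTM1, and MRNIP, listed under its older symbol C5orf45, rose as well (limma adjusted p = 0.0151), at 13.5 ± 0.975 CPM under AIL and 11.7 ± 0.177 CPM under DMSO. MGAT4B, opposite 1.37% of the exon bases of SQSTM1, rose (limma adjusted p = 2.01e-04) at 84.8 ± 1.79 CPM under AIL and 75.2 ± 1.61 CPM under DMSO. Exons of VGLL4 lie over 18.1% of the exon bases of ATG7 on the opposite strand, with VGLL4 at 25.6 ± 0.140 CPM under AIL and 26.4 ± 0.211 CPM under DMSO (SD, n = 3 each). FBXO31, opposite 2.82% of the exon bases of MAP1LC3B, rose (difference 0.38, limma adjusted p = 3.36e-06), and JAZF1, opposite 4.53% of those of TAX1BP1, fell (difference -0.26, limma adjusted p = 0.0120). AC115676.1 lies opposite 8.05% of the exon bases of GABARAPL1, AC060780.1 opposite 5.51% of those of NBR1 and AC005091.1 opposite 1.91% of those of TAX1BP1. These had no row, so their levels are not known. CCDC3, opposite 2.86% of those of OPTN, averaged 0.02 CPM under AIL and 0.07 CPM under DMSO. Of the 50-base words of MAP1LC3B, 4.82% also occur in MAP1LC3B2, which was listed at 0.133 ± 0.0551 CPM under AIL and 0.107 ± 0.0153 CPM under DMSO. For the other 9 genes at most 1.08% of such words occur in any other gene.

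Promoter sequence was looked at for elements of the factors reported to act on autophagy genes. RefSeq (GRCh38.p14) gave 16 windows of 250 bases before a start site for the 10 genes. On both strands, TGACNNNGC, the core of the antioxidant response element bound by NRF2, occurred in windows of CALCOCO2 and MAP1LC3B, in 10.9% of the 35116 windows of the whole set and in 11.6% of the 12421 windows of tested genes. CACGTG, the E-box of TFEB and its relatives, which every TCACGTGA contains, occurred in 0 of the 16 windows, in 6.34% of all and in 8.31% of those of tested genes. TGATGNAA, the composite element of ATF4 and CEBP proteins, also occurred in 0 of 16, in 3.14% of all and in 1.62% of those of tested genes. Absence of these letters from a window says nothing of sites elsewhere. The stretches below show the 2 genes that differed most and the 2 with a match. Each is the longest part of its window outside exons of GENCODE v29, except for MAP1LC3B, where only the bases around the match are given, 5′ to 3′ on the strand of the gene with matches to TGACNNNGC in capitals. SQSTM1 had more than 1 window, and the stretch shown, of 52 bases, is from the most downstream. Stretches of 58 and 56 bases in its other windows are not shown. SQSTM1 is at chr5:179820707-179820758, ATG7 at chr3:11272147-11272308, CALCOCO2 at chr17:48830785-48830987 and MAP1LC3B at chr16:87392280-87392308, all on the plus strand.
SQSTM1: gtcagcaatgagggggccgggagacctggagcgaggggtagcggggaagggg
ATG7: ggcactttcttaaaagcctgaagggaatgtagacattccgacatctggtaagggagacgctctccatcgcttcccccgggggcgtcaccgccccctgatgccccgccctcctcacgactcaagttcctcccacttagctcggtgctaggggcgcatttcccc
CALCOCO2: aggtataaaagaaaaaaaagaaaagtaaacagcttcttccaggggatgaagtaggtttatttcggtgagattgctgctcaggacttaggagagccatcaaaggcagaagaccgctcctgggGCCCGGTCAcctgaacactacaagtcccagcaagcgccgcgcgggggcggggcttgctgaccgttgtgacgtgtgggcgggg
MAP1LC3B: gcgagtcaccTGACCAGGCtgcgggctga
The match in CALCOCO2 is on the opposite strand and starts 129 bases before the start site, and the match in MAP1LC3B is on the strand of the gene and starts 46 bases before it. CALCOCO2 did not differ beyond its spread and MAP1LC3B was 16.9% higher under AIL, while the windows of SQSTM1 and ATG7 held no match. Whether a match goes with a difference was not tested.

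The rest of the autophagy machinery was described through 9 lists of 94 genes, of which 87 could be tested. In these, 32 genes rose and 21 fell, with a median difference of 0.02, beside 28.2% and 25.9% of all tested genes. The counts by step of the pathway follow and are to be read beside these same shares. Differences between steps were not tested.

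Among other autophagy receptors, 6 of 19 rose and 3 fell (median 0.03), beside 28.2% and 25.9% of all tested genes. BNIP3, a mitochondrial receptor known to respond to low oxygen, had 65.1, 63.6 and 64.2 CPM under AIL and 46.8, 46.6 and 47.5 CPM under DMSO. It rose by 0.45 (limma adjusted p = 6.91e-09). Its relative BNIP3L, which clears mitochondria from maturing red cells, fell by 0.20 (limma adjusted p = 1.59e-05), with 89.3 ± 0.350 CPM under AIL and 103 ± 2.02 CPM under DMSO. RTN3, a receptor for tubules of the endoplasmic reticulum, fell by 0.30 (limma adjusted p = 9.42e-08). PHB2, an inner-membrane mitochondrial receptor, rose by 0.18 (limma adjusted p = 4.71e-05). For BNIP3, 9.92% of its 50-base words occur in other genes, mostly the pseudogene BNIP3P1.

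Of the ATG8 family genes besides the 3 above, GABARAP had 53.5, 50.1 and 53.7 CPM under AIL and 42.0, 43.8 and 40.2 CPM under DMSO. It rose by 0.31 (limma adjusted p = 5.87e-06), although 28.2% of its 50-base words occur in other genes, nearly all in AC120057.2. Among other conjugation genes, 4 of 9 rose and 1 fell (median 0.09). ATG4B and ATG4D, proteases that trim ATG8 proteins before conjugation and release them afterwards, rose by 0.20 and 0.27 (limma adjusted p = 6.23e-04 and 0.00217). ATG3, which receives ATG8 from ATG7, rose by 0.12 (limma adjusted p = 0.00561). ATG16L2, a relative of ATG16L1, fell by 0.25 (limma adjusted p = 0.00831). ATG12, joined to ATG5 in the conjugate, was at 77.7 ± 2.92 CPM under AIL and 74.9 ± 0.514 CPM under DMSO, and its partner ATG16L1 at 44.1 ± 2.61 and 43.9 ± 0.920 CPM (SD, n = 3 each). Neither passed the test.

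Genes of the ULK1 complex, which starts autophagosome formation, fell in 3 of 4 cases. RB1CC1 (FIP200), its scaffold, had 129, 127 and 134 CPM under AIL and 149, 153 and 153 CPM under DMSO. It fell by 0.22 (limma adjusted p = 4.88e-06). The kinase gene ULK1 fell by 0.30 (limma adjusted p = 0.00242) at 5.73 ± 0.465 CPM under AIL and 7.26 ± 0.292 CPM under DMSO. ATG13, its regulatory subunit, rose by 0.16 (limma adjusted p = 7.97e-04). C12orf44 (ATG101) fell by 0.10 (limma adjusted p = 0.0346), a call lost without an intensity trend (0.0575) and on leaving out AIL replicate 1 or 3 or any DMSO replicate (0.0547 to 0.122).

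In the class III PI3-kinase complex, which makes the lipid that recruits later factors, 3 of 8 rose and 2 fell (median 0.01). PIK3R4 (VPS15), its regulatory subunit, fell to 51.6 ± 1.37 CPM under AIL, against 65.4 ± 2.25 CPM under DMSO (SD, n = 3 each; limma adjusted p = 6.19e-07). UVRAG and ATG14, subunits that set the forms of the complex apart, and BECN1, a subunit they share, rose. The differences of UVRAG, BECN1 and ATG14 were 0.22, 0.16 and 0.21 (limma adjusted p = 2.42e-04, 2.48e-04 and 0.00127). The number that fell was 1 without AIL replicate 3, without DMSO replicate 1 or without an intensity trend.

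The list of ATG9, lipid transfer and WIPI genes covers proteins that feed lipid, or bring other factors, to the growing membrane. In limma 4 of 9 fell and 0 rose (median -0.09). TMEM41B, a lipid scramblase of the endoplasmic reticulum, had 112, 106 and 108 CPM under AIL and 157, 153 and 156 CPM under DMSO, and fell by 0.52 (limma adjusted p = 2.56e-10). Its partner scramblase VMP1 fell by 0.25 (limma adjusted p = 1.05e-06). WIPI2, which brings the ATG16L1 complex to the membrane, fell to 47.3 ± 2.77 CPM under AIL, against 63.6 ± 0.220 CPM under DMSO (limma adjusted p = 1.31e-07). ATG9A, the scramblase of ATG9 vesicles, fell by 0.19 (limma adjusted p = 4.57e-04), and 33.6% of its 50-base words also occur in AC068946.2.

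Of the genes for fusion of autophagosomes with lysosomes, 9 of 15 rose and 2 fell (median 0.14). VPS41, VPS33A and VPS16, subunits of the HOPS tethering complex, rose by 0.25, 0.31 and 0.32 (limma adjusted p = 1.14e-06, 1.28e-06 and 1.96e-06). PLEKHM1, an adaptor that links HOPS to RAB7 and ATG8 proteins, rose by 0.35 (limma adjusted p = 5.55e-05). Of the 50-base words of VPS33A, VPS16 and PLEKHM1, 21.7, 14.4 and 17.1% occur in other genes. The 2 that fell were YKT6 and VPS18, chosen after their values were seen. The number that fell was 1 without AIL replicate 3, without DMSO replicate 1 or 2, without an intensity trend, or with no filter on low values. VPS18 is also a HOPS subunit, and it fell by 0.13 (limma adjusted p = 0.0410). The HOPS subunits VPS11 and VPS39 rose by 0.29 and 0.12 (limma adjusted p = 5.97e-05 and 0.0292).

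**Figure D4:**
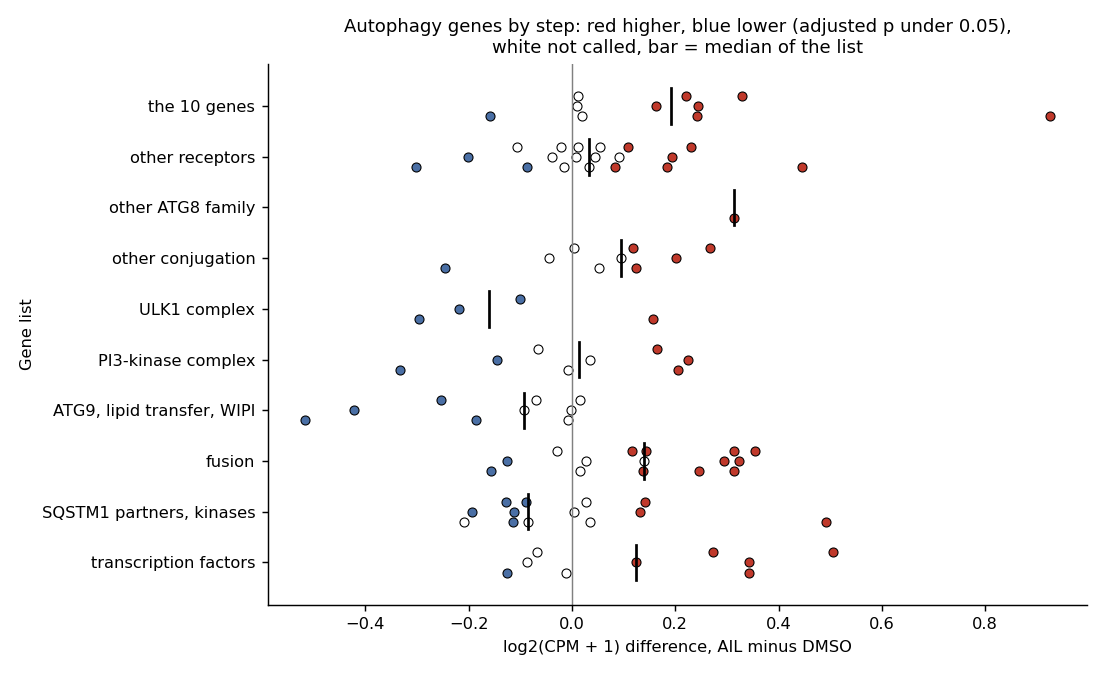
The log2(CPM + 1) difference, AIL minus DMSO, of each tested gene by step of the pathway, with red for genes called higher, blue for genes called lower (limma adjusted p under 0.05), white for others and a black bar at the median of the list. Medians run from -0.16 for the ULK1 complex to 0.14 for fusion among the lists with at least 4 tested genes besides the 10 genes themselves, whose median is 0.19.

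Binding partners and kinases of SQSTM1 and other receptors included 3 of 13 that rose and 5 that fell (median -0.09), and 3 fell without an intensity trend. RPTOR, the mTORC1 subunit that SQSTM1 binds, had 40.6, 37.0 and 36.0 CPM under AIL and 27.1, 26.3 and 26.4 CPM under DMSO, and rose by 0.49 (limma adjusted p = 1.36e-07). MTOR, the kinase of that complex, fell by 0.19 (limma adjusted p = 7.30e-06). PRKCI, an atypical protein kinase C that pairs with SQSTM1, fell by 0.13 and CSNK2B, a subunit of casein kinase 2, rose by 0.14 (limma adjusted p = 8.44e-04 and 0.00190). For CSNK2B, 25.1% of 50-base words occur in other genes. CSNK2A1 and CSNK2A2, also casein kinase 2 genes, fell by 0.09 and 0.11 (limma adjusted p = 0.00727 and 0.0157). TBK1, another kinase of the list, fell by 0.11 (limma adjusted p = 0.00595). KEAP1 had 65.1, 62.9 and 57.5 CPM under AIL and 56.3, 55.4 and 57.1 CPM under DMSO. It rose by 0.13 (limma adjusted p = 0.0116), a call lost without AIL replicate 1 (0.0818) and without an intensity trend (0.0546).

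Of the transcription factors reported to act on SQSTM1 or other autophagy genes, 5 of 9 tested rose and 1 fell (median 0.12). ATF4, the effector of the integrated stress response, had 406, 405 and 389 CPM under AIL and 287, 279.7 and 277 CPM under DMSO, and rose by 0.51 (limma adjusted p = 9.88e-11). DDIT3 (CHOP), CEBPB and FOXO3 rose by 0.34, 0.34 and 0.27 (limma adjusted p = 1.17e-04, 5.17e-04 and 1.43e-05). In DMSO libraries CEBPB spread from 36.6 to 49.7 CPM. For ATF4, FOXO3 and NFE2L2, 17.9, 27.8 and 13.2% of 50-base words occur in other genes. TFE3 rose by 0.12 (limma adjusted p = 0.0182), a call lost without AIL replicate 2 (0.0921) or DMSO replicate 3 (0.0774). TFEB, a regulator of lysosomal genes, was at 0.913 ± 0.168 CPM under AIL and 1.03 ± 0.217 CPM under DMSO, under the limit for testing. NFE2L2, which encodes NRF2, had 58.4, 57.8 and 62.0 CPM under AIL and 60.8, 65.0 and 63.7 CPM under DMSO, and did not pass the test (difference -0.09, limma adjusted p = 0.0557). With the replicate number as a block its adjusted p was 0.0273, and it was also under 0.05 with median-of-ratios scaling (0.0383) and without AIL replicate 3 (0.00559) or DMSO replicate 1 (0.0314). In each of these 4 fits 2 factors of the list fell instead of 1.

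The genes most like SQSTM1 across the 6 libraries were found by the root mean square difference between log2(CPM + 1) values, each set relative to its DMSO mean, among 9684 genes averaging 5 CPM or more. The nearest was ZBTB40, a zinc finger gene, at 0.0475, with 128, 119 and 118 CPM under AIL and 66.5, 65.1 and 63.9 CPM under DMSO. ZNF329, also a zinc finger gene, followed at 0.0817, with 24.6 ± 0.677 CPM under AIL and 12.3 ± 0.375 CPM under DMSO. ID3, an inhibitor of DNA binding by basic helix-loop-helix factors, was at 0.0879, the netrin gene NTN4 at 0.0907 and SHISA2 at 0.0921. As with SQSTM1, AIL replicate 1 was the highest and AIL replicate 3 the lowest of the AIL libraries for ZBTB40, ID3 and SHISA2, while for NTN4 the order was the opposite. None of the 5 was in the autophagy lists, where ATF4 had the largest rise, 0.51. Nearness picks genes with a difference close to that of SQSTM1, so neither their rise nor their absence from the lists is a separate result.

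**Figure D5:**
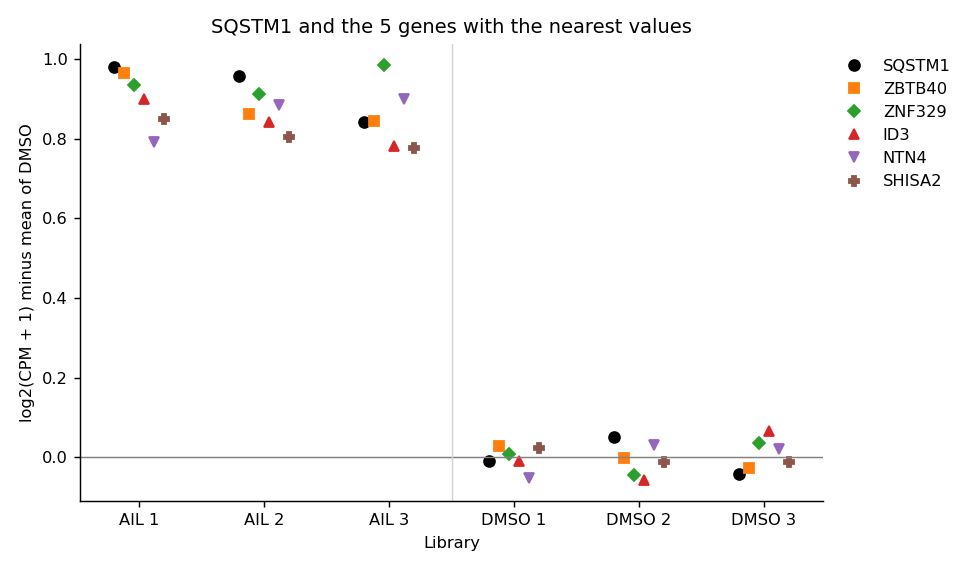
Values of SQSTM1 and its 5 nearest genes in each library, as log2(CPM + 1) minus the DMSO mean of the same gene, AIL libraries on the left and DMSO libraries on the right. For each of the 6 genes the 3 AIL points lie above the 3 DMSO points, which follows from the choice by nearness to SQSTM1. SQSTM1 is in black.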

How the data were processed

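The authors deposited a table of TMM-normalized CPM, per the file name. The submitters' processing notes name RSEM and edgeR 3.8.5, with no role. The aligner, genome build, gene models and strand setting were not given in those notes or the labels. The 10 genes and the lists were chosen with earlier results of these data known.

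Groups and replicate numbers came from the titles. log2(CPM + 1) was fitted with limma 3.58.1 in R 4.3.3, two-sided, with no covariates and with an intensity trend, for genes averaging 1 CPM or more. P-values were adjusted by Benjamini-Hochberg over 11069 genes, and the script was tested on simulated data. Depth is the inverse of the CPM step of 1 read, and 99.96 to 100% of values up to 10 CPM lay within 0.2 reads of a whole number. Counting errors cover counting only.

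Same-numbered AIL and DMSO libraries deviated weakly together from their group means (correlations 0.159, 0.133 and 0.129), against -0.179 to 0.021 for libraries with unlike numbers. Deviations within a group cancel out, so these correlations are tied to each other and do not establish a pairing. Any pairing comes from the data alone, and a replicate block was an alternative. Other alternatives were pseudocounts, filters, scalings, no trend and leaving out each library. Named genes were the 10, up to 4 per list with the smallest p, 5 regulators given by level and the 5 nearest to SQSTM1. Genes named for context were chosen after their values were seen and were not followed singly under the alternatives. They were ATG12, ATG16L1, CSNK2A1, CSNK2A2, TBK1, YKT6, VPS11, VPS18, VPS39 and the overlapping genes. Shared words came from GENCODE v29 transcripts.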

Additional observations from a re-analysis of the deposited data

How the results depend on the processing

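Under all 14 alternatives run, 6 of the 10 genes were called higher and 1 lower. Over all genes, 2709 to 3347 were called higher and 2527 to 3121 lower, of 9723 to 13439 tested. The 10 were chosen by this same contrast, so that their calls held is a description only. SQSTM1 stayed between 0.90 and 0.97 when each library was left out, and at 0.91 with quantile normalization and 0.93 with the replicate block. Its receptor share, which restates the same differences, was higher by 12.3 to 13.6 percentage points on leaving out each library, against 12.8 with all. Over the 9 lists, calls higher ranged from 26 to 33 and lower from 15 to 22, and with the replicate block they were 33 and 22. With that block, 3347 genes were called higher and 3121 lower, against 3122 and 2869, and apart from NFE2L2 no named call changed. Among the named genes no called direction turned. Of their 714 values, 10 lost a call and 4 gained one, as given beside KEAP1, TFE3, C12orf44 and NFE2L2. The planned count test was not run, because 51.6 to 70.3% of values lay within 0.1 reads of a whole number, where 95% was required. Rounding to 2 decimals alone moves a value by up to 0.163 to 0.190 reads, so this condition could not be met whatever the counts. The lowest of the 10 genes, GABARAPL1, had 202 to 263 scaled reads, which limits its precision.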
